A study of Mus musculus with 4 samples.

Results

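The genes described here encode the ATP-binding cassette (ABC) proteins of families A to G, the organic anion transporting polypeptides (OATPs, Slco genes), the organic cation, anion and carnitine transporters of the Slc22a family, and the bile acid uptake carrier Slc10a1 (NTCP). They were chosen by symbol among protein-coding genes of GENCODE M21, which gave 90 genes of the 22079 in the deposited table: 50 ABC genes, 14 Slco genes, 25 Slc22a genes and Slc10a1. RNA was measured by mRNA sequencing in mouse primary hepatocytes, 2 libraries from wild-type mice (WT) and 2 from Prom1-deficient mice (Prom1-/-, here KO), all from livers of C57BL/6 males aged 8 weeks. Cells of both genotypes attached for 4 hours in medium with 10% serum and 10 nM dexamethasone, and were then kept overnight without serum. The series text calls the libraries of a genotype biological replicates, without saying whether each came from 1 mouse. Whether the gene was deleted throughout the animal or only in hepatocytes is not given in the sources used here.

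Hepatocytes are polarised. Across the sinusoidal (basolateral) membrane, which faces the blood, NTCP, OATPs and Slc22a carriers take up bile acids, bilirubin, hormones and drugs, and pumps such as ABCC3 and ABCC4 return conjugates to the blood. Across the canalicular membrane, ABC pumps drive bile salts (ABCB11), phosphatidylcholine (ABCB4), conjugated bilirubin (ABCC2) and sterols (ABCG5 with ABCG8) into bile. Other ABC proteins work inside the cell, in peroxisomes, mitochondria and lysosomes, and the ABCE and ABCF proteins act in translation and are not transporters.

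The deleted gene, Prom1, had 0.571 and 1.22 FPKM in WT 1 and WT 2, while the table gave 0 for KO 1 and 0.0458 FPKM for KO 2. FPKM is fragments per kilobase of transcript, scaled to the mapped fragments of a library, so levels can be compared between genes. An estimated 15100000 to 17300000 fragments stood behind each library. The estimate could fall only within a range set in advance, and it was not checked against mapped counts. At that depth a 2 kb transcript at 1 FPKM rested on 27.2 to 31.2 fragments. WT 1 correlated with KO 1 (r = 0.988 across 10407 genes) and KO 2 (r = 0.9884) more closely than with WT 2 (r = 0.9858), and KO 1 with KO 2 gave 0.9857. The genes correlated include Alb, listed at 27100 FPKM in WT 1 and at 0 in WT 2. That value lowers the correlations with WT 2, by an amount that was not computed. Markers of liver cells other than hepatocytes were present in all libraries. All 8 sinusoidal endothelial markers were above 0 in every library and summed to 73.7 FPKM in KO 1, against 50.4, 47.2 and 37.6 FPKM in WT 1, WT 2 and KO 2. The 8 stellate cell markers, also all above 0, summed to 23.8 FPKM in KO 1 against 13.9, 16.2 and 10.6. Dcn made up most of that sum, at 17.5 FPKM in KO 1 against 8.31, 8.39 and 7.02. Lrat, Col1a1, Col3a1, Pdgfrb and Colec11 were also highest in KO 1, each at 1.35 FPKM or less, and Colec11 narrowly. Des was highest in WT 1, and KO 2 was the lowest library for all 8 but Des. Reln went the other way, at 3.47 and 5.65 FPKM in WT and at 2.79 and 2.33 FPKM in KO. The 8 macrophage markers summed to 16.4 and 18.7 FPKM in WT and to 23.6 FPKM in each KO library, and 3 of 6 cholangiocyte markers, not including Krt7 and Epcam, were above 0 in every library. In such bulk libraries, fewer cells of a type and less RNA per cell cannot be told apart.

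Of the 90 genes, 48 averaged at least 1 FPKM across the libraries and were tested, 25 had lower values above 0 in at least 1 library, and 17 were listed at 0 in every library. Slc22a7 was the 1 tested gene with a genotype mean under 1 FPKM. The genotypes were compared with limma on log2(FPKM + 1), which understates the change of genes with low values, and differences are KO minus WT on that scale. By limma, 0 of the 48 genes had an adjusted p under 0.05, as did 0.00% of all 10407 genes tested. The lowest adjusted p of a transporter gene was 0.543. At an unadjusted limma p under 0.05 there were 6, or 12.5%, against 7.29% of all genes. Of these, 4 were higher in KO (Abcc12, Abcg2, Abcc5 and Abca1; 3.10% of all genes were called in that direction) and 2 were lower (Slc22a7 and Abcg5; 4.19% of all genes). For 13 genes neither KO library fell within or below the WT range (27.1%, against 18.3% of all genes), and for 7 both were under it (14.6%, against 19.8%), so 41.7% did not overlap where 38.1% of all genes did not. The median difference over the 48 genes was 0.0036, and -0.0011 over all genes. With 2 libraries in each genotype, 0.333 is the smallest two-sided p that exact permutation allows, so the limma p-values rest on spread borrowed from all genes.

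**Figure D1:**
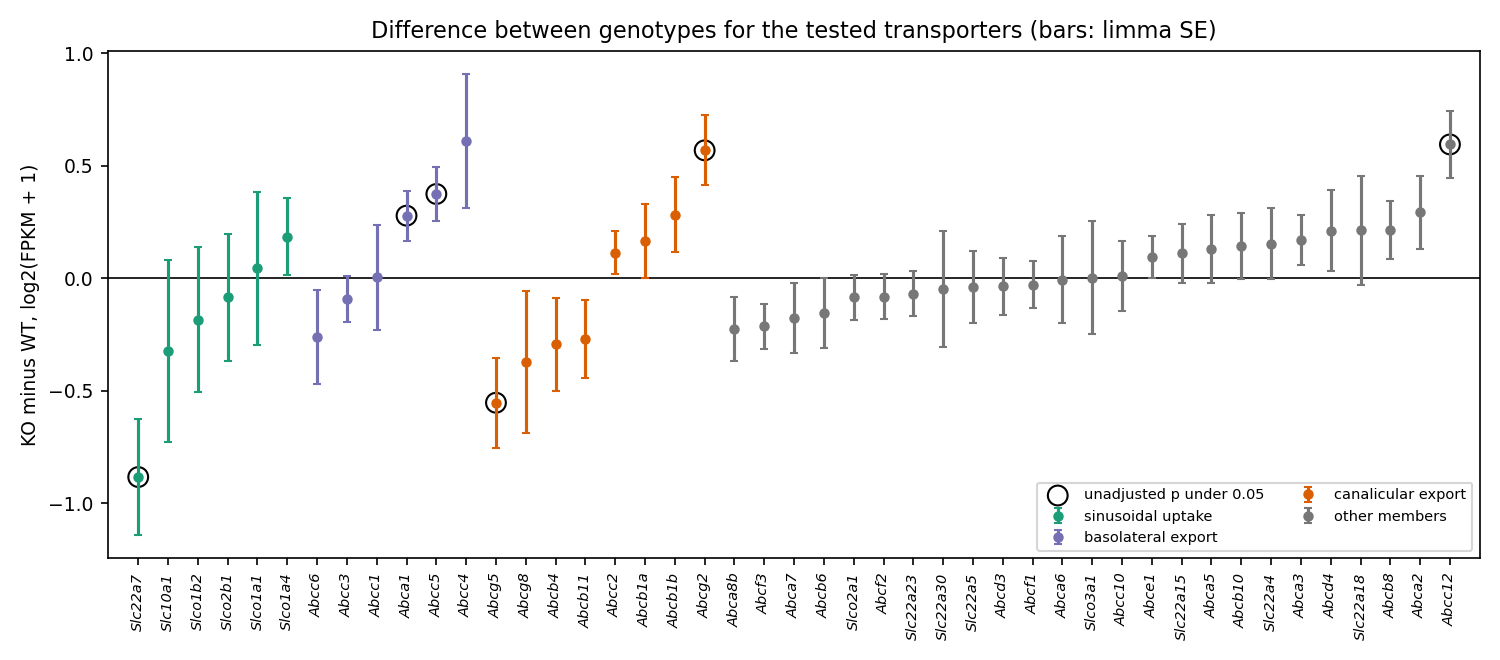
Difference between genotypes (KO minus WT, log2(FPKM + 1), vertical axis) for 45 of the 48 tested genes, ordered by role; points are limma estimates, bars are 1 SE, and black rings mark the 6 genes with an unadjusted p under 0.05. Values run from -0.88 (Slc22a7) to 0.61 (Abcc4) and lie on both sides of 0 for uptake, basolateral and canalicular genes.

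Among the carriers that take solutes up from blood, Slco2b1 (OATP2B1), a carrier of sulfated steroids, stood at 15.5 and 14.4 FPKM in WT and at 9.98 and 19.5 FPKM in KO, so the KO libraries lay on either side of both WT libraries. Slco1a1 (OATP1A1), the carrier that predominates in male mice, stood at 10.0 and 19.3 FPKM in WT and at 11.2 and 18.6 FPKM in KO, with the ranges overlapping. Slc10a1, the sodium-dependent bile acid carrier, stood at 9.63 and 14.6 FPKM in WT and at 5.75 and 14.7 FPKM in KO. In Slc10a1, KO 2 matched the higher WT library and KO 1 was the lowest. Slco1a4 (OATP1A4), a carrier inducible through the xenobiotic receptors PXR and CAR, stood at 4.71 and 6.36 FPKM in WT and at 5.87 and 6.90 FPKM in KO. Slco1b2 (OATP1B2), the bilirubin and bile acid carrier of mouse liver, stood at 4.22 and 5.50 FPKM in WT and at 2.67 and 6.15 FPKM in KO. None of these 5 genes separated the genotypes.

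Slc22a7 (OAT2), an organic anion carrier, was the 1 uptake gene whose libraries did not overlap. It stood at 1.34 and 2.56 FPKM in WT and at 0.555 and 0.581 FPKM in KO, so both KO libraries were low and nearly equal while the WT libraries lay far apart. Its difference was -0.88 (SE 0.26; limma adjusted p = 0.570), and -0.58 without WT 2 and -1.18 without WT 1. The value is that of a rare transcript, with an estimated 42 and 73 fragments in WT and 16 in each KO library. It lies on chromosome 17, minus strand, 46432183 to 46438457 in mm10.

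For 6 of the 7 uptake carriers the KO libraries lay further apart than the genotypes, Slc22a7 being the exception. KO 1 lay below KO 2 for all 7 genes, by a median of 0.68 on the log2 scale, while the median absolute difference between genotypes was 0.18 and the median signed difference -0.08. Over all genes tested KO 1 lay below KO 2 for 5540 of 10407. The median absolute distance between KO 1 and KO 2 was 0.16 over all genes, and that between genotypes 0.12. The share of all genes with KO libraries further apart than the genotypes was not computed. The WT libraries of the uptake genes also lay apart, WT 1 below WT 2 for 6 of the 7. Their median absolute distance was 0.37, against 0.13 over all genes. Relative to each gene's mean, the uptake genes had median levels of -0.07 and 0.25 in WT 1 and WT 2, and of -0.45 and 0.36 in KO 1 and KO 2. The sign of the difference depended on which KO library was left out for 5 of the 7, a share not computed over all genes. Slc22a7 (-0.87 without KO 1 and -0.89 without KO 2) and Slco1a4 (0.29 and 0.08) kept theirs. Slco2b1 differed by 0.37 without KO 1 and by -0.53 without KO 2, each at an unadjusted limma p under 0.05 and an adjusted p above it. Slc10a1 differed by 0.29 and -0.93, and Slco1b2 by 0.30 and -0.66, in the same order. The median levels of the 9 tested hepatocyte markers had the same order of libraries (-0.08, 0.16, -0.25 and 0.17), WT 2 and KO 2 being nearly equal. Single markers did not all keep that order. KO 1 was the lowest library for 5 of the 9. Alb, also among the 9, was instead lowest in WT 2, where it was listed at 0. The summed endothelial and stellate cell markers were highest in KO 1 (73.7 and 23.8 FPKM), the stellate sum mostly through Dcn. The part of these marker levels in the uptake values was not tested.

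**Figure D2:**
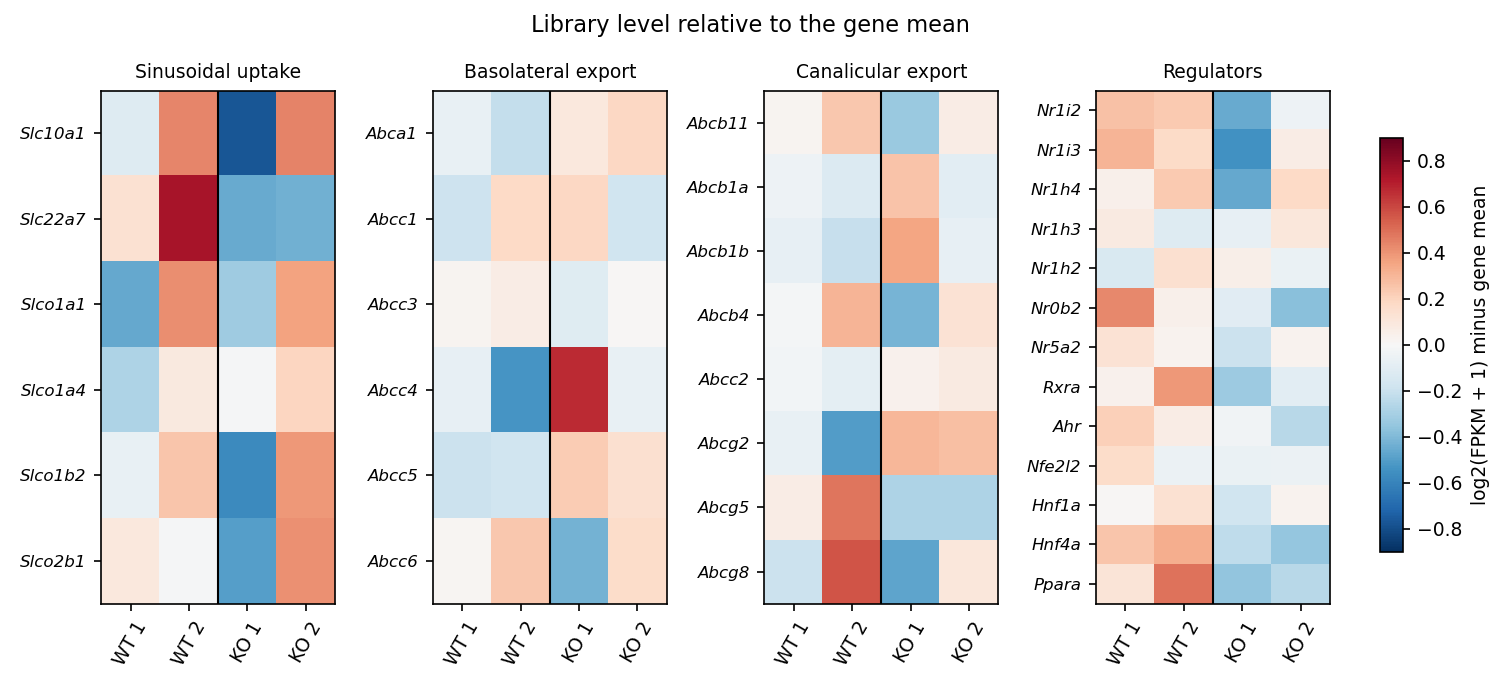
Level of 6 uptake genes and of the tested basolateral export, canalicular export and regulator genes in each library, as log2(FPKM + 1) minus the gene's mean over the 4 libraries (red above, blue below the mean; the black line separates WT from KO). The uptake genes are mostly blue in KO 1 and red in KO 2, and Slc22a7 is blue in both.

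Genes for pumps that export across the basolateral membrane had a median difference of 0.14 over 6 tested genes. Abcc3 (MRP3), which returns bilirubin and bile acid glucuronides to blood, was the most abundant of all 90 genes, at 163 and 168 FPKM in the WT libraries and at 149 and 162 FPKM in KO 1 and KO 2. Both KO libraries of Abcc3 lay just below both WT libraries, with a difference of -0.09 (SE 0.10) that was smaller than its error. Abcc6, whose product releases ATP from hepatocytes, stood at 20.1 and 23.6 FPKM in WT and at 14.5 and 22.4 FPKM in KO, with KO 1 again the lowest library.

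Abca1, which loads cholesterol and phospholipid onto apolipoprotein A-I, stood at 15.6 and 14.0 FPKM in WT and at 17.6 and 18.8 FPKM in KO. The KO libraries of Abca1 were above both WT libraries, and the difference was 0.28 (SE 0.11; limma adjusted p = 0.682). Abcc5 (MRP5), a cyclic nucleotide exporter, stood at 5.83 and 5.89 FPKM in WT and at 8.17 and 7.64 FPKM in KO. The WT libraries of Abcc5 were nearly equal and both KO libraries were higher, a difference of 0.38 (SE 0.12; limma adjusted p = 0.586). Leaving out any library kept the difference of Abcc5 between 0.33 and 0.42. Abcc4 (MRP4), a pump for bile acids and nucleotides that hepatocytes raise in cholestasis, had the largest positive difference of the 48 genes, 0.61 (SE 0.30; limma adjusted p = 0.711). Abcc4 stood at 2.03 and 1.21 FPKM in WT and at 4.10 and 2.06 FPKM in KO, so KO 2 was barely above WT 1, and without KO 1 the difference was 0.24. Abcc1 (MRP1) stood at 1.17 and 1.80 FPKM in WT and at 1.81 and 1.18 FPKM in KO, with no separation.

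Canalicular pumps held genes with differences in both directions, 4 higher and 4 lower of 8 tested, with a median of -0.08. Abcc2 (MRP2), the exporter of conjugated bilirubin, was the most abundant, at 137 and 131 FPKM in WT and at 143 and 147 FPKM in KO. Both KO libraries of Abcc2 were above both WT libraries, by 0.11 (SE 0.10; limma adjusted p = 0.820). Abcg2 (BCRP), the exporter of sulfates, urate and many drugs, stood at 57.7 and 42.5 FPKM in WT and at 74.6 and 73.3 FPKM in KO. The KO libraries of Abcg2 agreed closely and were higher than both WT libraries, which lay apart; the difference was 0.57 (SE 0.16; limma adjusted p = 0.562) and was 0.35 without WT 2.

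The pumps for bile salts and phosphatidylcholine had lower mean values in KO but overlapping libraries. Abcb11 (BSEP), the bile salt export pump, stood at 8.15 and 9.61 FPKM in WT and at 6.12 and 8.40 FPKM in KO. Abcb4 (MDR2 in the mouse), the phosphatidylcholine floppase, stood at 34.2 and 43.1 FPKM in WT and at 25.6 and 37.9 FPKM in KO. In Abcb4 and Abcb11 KO 1 was the lowest library, and without it their differences were -0.02 and -0.07, against -0.29 and -0.27 with all libraries. The drug efflux genes Abcb1a and Abcb1b encode the 2 P-glycoproteins of the mouse and lie in tandem just before Abcb4 on chromosome 5, 27401 bases separating Abcb1b from Abcb4. Abcb1b stood at 10.4 and 9.40 FPKM in WT and at 14.4 and 10.4 FPKM in KO, and Abcb1a at 4.42 and 4.15 against 5.69 and 4.25 FPKM. KO 1 was the highest library of both, opposite to its place for the neighbour Abcb4. Of the 50-base stretches of the Abcb1b transcript 18.3% also occur in another gene, mostly Abcb1a, so their values are uncertain to that extent.

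Abcg5 and Abcg8 encode the partners of the sterol exporter, an obligate heterodimer, and are transcribed away from each other on chromosome 17. By RefSeq (GRCm38.p6) their nearest start sites are separated by 109 bases, chr17:84683012-84683120, so the same stretch lies upstream of both these starts. In GENCODE M21 the stretch falls inside the annotated span of Abcg8 (84676302 to 84700333). It is shown because these are the 2 tested genes whose annotated spans overlap, and both had a lower mean in KO. The plus strand, which is the coding strand of Abcg8, is printed 5′ to 3′, and capitals mark TTATC, the reverse complement of GATAA, the core of the element bound by GATA factors:
Abcg5-Abcg8: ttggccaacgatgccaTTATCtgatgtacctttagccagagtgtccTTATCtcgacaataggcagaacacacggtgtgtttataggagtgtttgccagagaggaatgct
GATAA on either strand, searched after the sequence was seen, occurs 2 times in this stretch of 109 bases. In promoter windows of 300 bases (250 before to 50 after a start) it occurs 3 times for Abcg5 and 3 times for Abcg8. A match lies in 25.4% of all 32851 such windows, against 23.4% of the 47 windows of tested transporter genes. AGGTCA, the element read by many nuclear receptors, on either strand, is neither in this stretch nor in the windows of Abcg5 and Abcg8. It was found in 16.3% of all windows and in 21.3% of those 47. The 47 windows belong to 37 of the 48 tested genes. A match of letters is a description and no sign of binding.

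Both sterol exporter genes were rare. Abcg5 stood at 2.39 and 3.52 FPKM in WT and at 1.67 FPKM in each KO library, so the KO libraries were equal and below both WT libraries. Its difference was -0.55 (SE 0.20; limma adjusted p = 0.651), and -0.34 without WT 2. Abcg8 stood at 2.12 and 4.26 FPKM in WT and at 1.57 and 2.82 FPKM in KO, and its libraries overlapped (-0.37, SE 0.31). Without WT 2, its highest library, Abcg8 did not differ in estimate (0.0040). In the annotation, 82 exonic bases of Abcg5 and Abcg8 overlap on opposite strands, and reads there can be told apart only if strand was used in counting, which no source used here states.

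**Figure D3:**
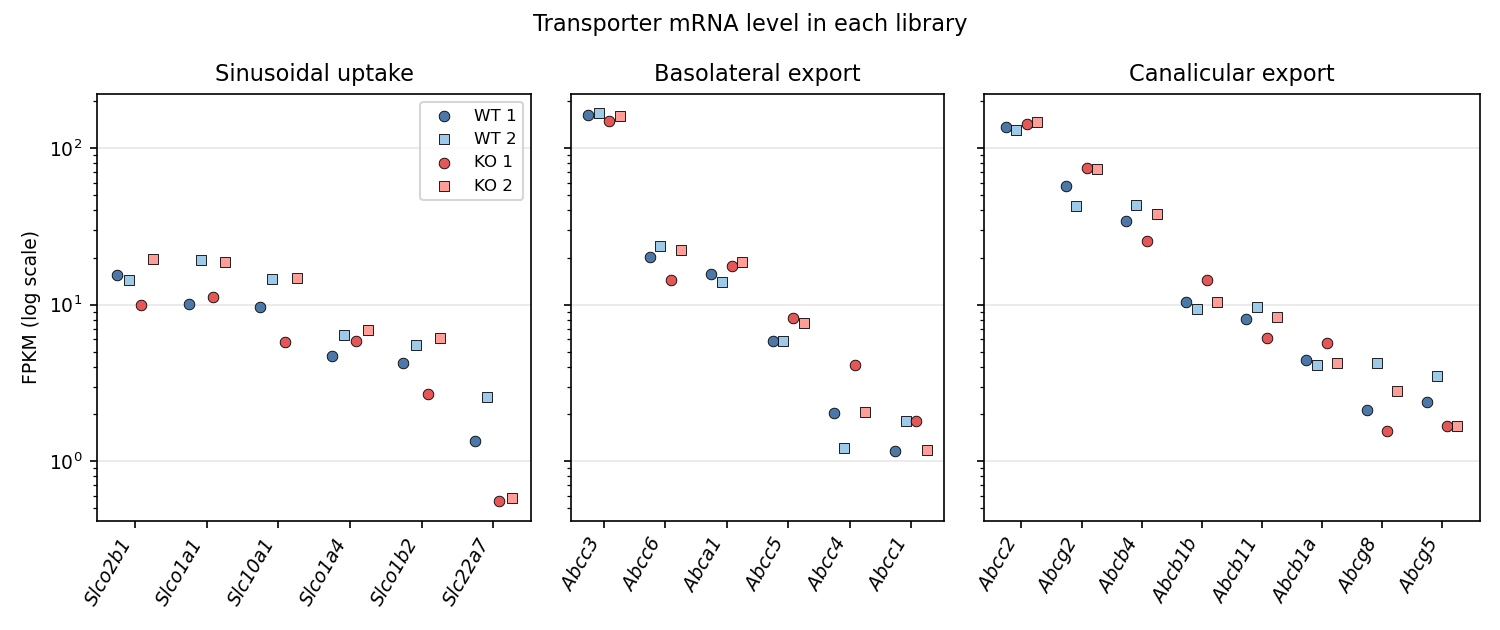
FPKM of 20 uptake and export genes in each library (log axis; blue, WT; red, KO; circles, replicate 1; squares, replicate 2), ordered by mean level within a role. Levels span from 0.555 FPKM (Slc22a7 in KO 1) to 168 FPKM (Abcc3 in WT 2), and the red points lie on 1 side of the blue for Slc22a7, Abca1, Abcc3, Abcc4, Abcc5, Abcb1b, Abcc2, Abcg2 and Abcg5, narrowly for Abcc4 and Abcb1b.

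Outside these 3 roles the lowest unadjusted p belonged to Abcc12 (MRP9), an ABCC protein whose substrates are not settled. Abcc12 stood at 4.77 and 4.60 FPKM in WT and at 6.76 and 8.50 FPKM in KO, so the WT libraries were close and both KO libraries higher. Its difference was 0.60 (SE 0.15; limma adjusted p = 0.543), the lowest p of the 48 genes, and lay between 0.45 and 0.74 with any library left out. It was the 1 transporter gene with an unadjusted p under 0.05 without WT 2. It lies on chromosome 8, minus strand, 86482260 to 86580686.

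ABC genes of organelles had small differences. In lysosomes and endosomes, Abca2, a lipid transporter (9.06 and 7.18 FPKM in WT, 9.10 and 11.2 in KO), and Abca3, known from the lipid-storing bodies of the lung (18.5 and 18.5 in WT, 19.6 and 22.4 in KO), had non-overlapping libraries. Their differences were 0.29 (SE 0.16; 0.14 without WT 2) and 0.17 (SE 0.11; 0.08 without KO 2), while those of Abca5 (0.13) and of the cobalamin transporter gene Abcd4 (0.21) came with overlapping libraries. Mitochondrial Abcb8 differed by 0.21 (SE 0.13; 0.10 without WT 2), with both KO libraries highest. Abcb6, linked to porphyrin transport, differed by -0.15. Of its 50-base stretches 90.3% occur in the overlapping gene Gm29253 on the same strand, so its value is uncertain. Peroxisomal Abcd3, a carrier of branched-chain and bile acid precursors, stood at 48.1 and 45.5 FPKM in WT and at 41.2 and 50.6 FPKM in KO, and its genotypes overlapped.

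Among the neighbours on chromosome 11, Abca6 stood at 93.6 and 117 FPKM in WT and at 87.8 and 124 FPKM in KO, so the genotypes overlapped at a high level. Abca8b, in the same cluster, differed by -0.23 (SE 0.14; -0.09 without KO 1) with both KO libraries lowest (7.39 and 8.02 FPKM in WT, 5.79 and 7.16 in KO). Abca7, a phospholipid transporter, differed by -0.18 (SE 0.15; -0.08 without WT 2), also with both KO libraries lowest. The translation factors had the tightest replicates: the median absolute distance between libraries of a genotype was 0.05 in WT and 0.04 in KO for Abce1, Abcf1, Abcf2 and Abcf3, against 0.37 and 0.68 for the uptake genes. Abcf3 stood at 20.5 and 20.2 FPKM in WT and at 17.1 and 17.7 FPKM in KO, a difference of -0.21 (SE 0.10; limma adjusted p = 0.697). Abce1, which recycles ribosomes, differed by 0.09 (SE 0.09), Abcf2 by -0.08 (SE 0.10) and Abcf1 by -0.03 (SE 0.10).

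The carnitine carriers had differences within 1 SE. Slc22a5 (OCTN2), which takes up carnitine for fatty acid oxidation, stood at 8.29 and 7.74 FPKM in WT and at 6.70 and 9.01 FPKM in KO. It shares 27.1% of its 50-base stretches with other genes, mostly its neighbour Slc22a21, and is uncertain to that extent. Slc22a4 differed by 0.15 (SE 0.16), with both KO libraries just above WT. The prostaglandin carrier gene Slco2a1 was abundant for an OATP gene, with 43.1 and 46.6 FPKM in WT, then 43.1 and 41.4 FPKM in KO, a difference of -0.08 (SE 0.10). Named outside the rule for its level, Slc22a18 was the most abundant Slc22a gene, at 116 and 84.9 FPKM in WT and at 92.5 and 143 FPKM in KO, with KO 2 the highest and WT 2 the lowest library.

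Many members were listed at 0. Of 25 Slc22a genes 8 were tested and 8 were listed at 0 in all libraries, among them the kidney carriers Slc22a6 (OAT1), Slc22a8 (OAT3), Slc22a12 (URAT1) and Slc22a2 (OCT2). Of 14 Slco genes 6 were tested and 4 were at 0, including Slco1c1, the thyroid hormone carrier of brain vessels, and Slco4c1 of the kidney. Of 50 ABC genes 33 were tested and 5 were at 0, including Abca12 of skin and Abca13. A value of 0 can also be a failed estimate in such a table. Of the 7 members on chromosome 5, where Prom1 lies, Abcf2 is the nearest to it, at 19.4 Mb.

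Transcriptional regulators of these transporters were mostly lower in KO in value. Of 13 regulator genes, all tested, 12 had a negative difference and 1 a positive one (Nr1h3, 0.03), the median was -0.28 (-0.17 without KO 1) where that of all genes was -0.0011, and 9 had both KO values under the WT range (19.8% of all genes did). At an unadjusted limma p under 0.05, 4 of 13 were lower (4.19% of all genes) and 0 were higher; 0 had an adjusted p under 0.05. Hnf4a, the hepatocyte nuclear receptor that sustains many transporter genes, stood at 90.4 and 95.8 FPKM in WT and at 64.9 and 59.5 FPKM in KO. The genotypes of Hnf4a were further apart than its replicates, with a difference of -0.58 (SE 0.10; limma adjusted p = 0.470), between -0.64 and -0.51 with any library left out. Ppara, the fatty acid receptor, differed by -0.60 (SE 0.15), and Rxra, the partner of most of these receptors, by -0.42 (SE 0.15). Without WT 2 the difference of Rxra was -0.25, no longer at an unadjusted p under 0.05. Nr1i2 (PXR), the xenobiotic receptor, stood at 13.8 and 13.5 FPKM in WT and at 7.95 and 10.9 FPKM in KO, a difference of -0.50 (SE 0.16) that was -0.30 without KO 1. Nr0b2 (SHP), the repressor induced by bile acids, stood at 3.39 and 2.35 FPKM in WT and at 2.02 and 1.50 FPKM in KO (-0.48, SE 0.21), a difference that was -0.29 without WT 1. The bile acid receptor Nr1h4 (FXR) differed by -0.28 with all libraries and by 0.04 without KO 1. KO 1 was the lowest library for 8 of the 13, and for 3210 of all 10407 genes tested. It also had the highest endothelial and stellate cell marker sums, the stellate sum mostly through Dcn. The part of these markers in the regulator values was not tested.

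Proteins that place or assist the transporters, and other carriers, did not share a direction: of 14 tested, 6 had a positive and 8 a negative difference (median -0.04). Slc10a2 (ASBT), the bile acid carrier of ileum and bile ducts, stood at 8.76 and 10.6 FPKM in WT and at 6.17 and 6.36 FPKM in KO, a difference of -0.55 (SE 0.14; limma adjusted p = 0.541). Bsg, the chaperone of monocarboxylate carriers, stood at 525 and 582 FPKM in WT and at 329 and 399 FPKM in KO (-0.61, SE 0.14). Radixin, Rdx, which ties ABCC2 to actin at the canaliculus, stood at 50.7 and 49.6 FPKM in WT and at 48.2 and 47.4 FPKM in KO, and its difference of -0.07 was smaller than its SE of 0.09. The related linkers had higher values in KO, Msn by 0.68 (SE 0.20) and Ezr by 0.45 (SE 0.17), and KO 1 was the highest library of both. Without KO 1 the differences of Msn and Ezr were 0.39 and 0.29. The endothelial and stellate cell marker sums were highest in KO 1, the stellate sum mostly through Dcn. The macrophage markers were higher in sum in both KO libraries (23.6 FPKM in each, against 16.4 and 18.7 FPKM). Of the 7 tested, 5 had a positive and 2 a negative difference, with a median of 0.05. The largest were Marco (0.87) and Cd5l (0.70), each at an unadjusted limma p under 0.05 and an adjusted p above it. C1qa (-0.14) had both KO values under the WT range. The part of these markers in the values of Msn, Ezr and the transporter genes with higher values in KO was not tested.

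**Figure D4:**
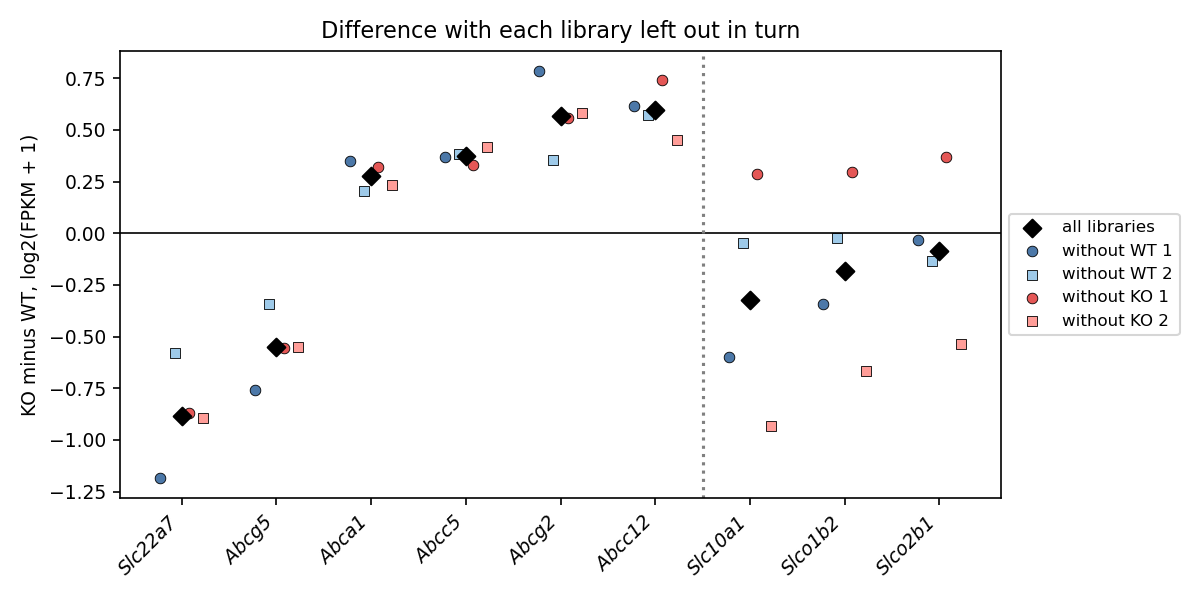
Difference between genotypes (KO minus WT, log2(FPKM + 1)) with all libraries (black diamonds) and with each library left out in turn (coloured symbols), for the 6 genes with an unadjusted p under 0.05 (left of the dotted line) and for 3 uptake carriers (right). The 6 genes stay on their side of 0, while the 3 uptake genes cross it, as Slco2b1 does from -0.53 without KO 2 to 0.37 without KO 1.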

How the data were processed

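The authors deposited 1 gene table with 1 column per library, read here as FPKM from the values and from the tools named in the submitters' processing notes (STAR 2.5.0, Cufflinks, Cuffdiff 2.2.1; build mm10), since no header states the unit. Per the labels' protocols, libraries were made with a stranded TruSeq mRNA kit; no source used here gives the annotation or strand setting of the counting. Of 22079 identifiers 21984 were matched to GENCODE M21, which annotates the same build. Values were taken as log2(FPKM + 1), genes averaging at least 1 FPKM were kept, and KO was compared with WT by limma 3.58.1 in R 4.3.3 (intensity trend, two-sided, Benjamini-Hochberg over 10407 genes). The fit was tested on simulated data. Depth was estimated from low values in genes with 1 annotated transcript, taken to stand for 1 fragment of 200 bases. Only values within a range set in advance were used, which bounds the estimate and the fragment numbers drawn from it. Prom1 fell under the filter and is given by its values.

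Members, role lists and alternatives were chosen with earlier results of these data known. Named genes are the uptake and export lists and the 5 highest and 5 lowest moderated t of the other tested members. Also named are up to 3 most abundant genes of each other role list. So are the 4 largest differences among regulators and among partner proteins, and Rdx and Prom1. Slc22a18, Rxra, Nr1h3, Nr1h4, Marco, Cd5l, C1qa, the stellate cell markers, Alb and genes listed at 0 are named outside this rule. Alternatives were other pseudocounts and filters, rescaling, no trend, a replicate block and leaving out each library. Protein sequences were not used here. Some genes that the rule names are counted in the totals but not reported here.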

Additional observations from a re-analysis of the deposited data

How the results depend on the processing

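Replicates of 2 per genotype limit every value here, and a transcript under 2 FPKM rests on few fragments (an estimated 16 for Slc22a7 in each KO library). Over all genes, limma called 0 with all libraries (759 at an unadjusted p under 0.05) and between 0 and 8 with a library left out, 8 without WT 1 and 5 without KO 1, while 0 of the transporter genes were called under any alternative run. Their lowest adjusted p ran from 0.247 without WT 1 to 0.9999 without WT 2. With a library left out, those at an unadjusted p under 0.05 numbered 1 to 6 higher in KO (main 4; 1 without WT 2) and 0 to 7 lower (main 2; 7 without KO 2, 1 without KO 1, 0 without WT 2). The lower count was 4 with no filter and 0 with a filter at 5 FPKM, which removes Slc22a7 and Abcg5. With that filter the medians were 0.068 over 35 transporter genes, 0.0455 over 5 uptake (-0.084 at 1 FPKM), 0.093 over 4 basolateral and 0.11 over 5 canalicular genes. With a library left out the medians ran from -0.045 to 0.12 over all, -0.53 to 0.30 for uptake, 0.12 to 0.21 for basolateral export and -0.19 to 0.044 for canalicular export. The cause of these shifts was not tested.

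Of 507 values of 48 named genes under the alternatives, 20 changed sign, in 15 genes, and all 20 were with a library left out (10 of them KO 1). The lowest and highest differences were -0.93 and 0.29 for Slc10a1, -0.40 and 0.49 for Slco1a1, -0.66 and 0.30 for Slco1b2, -0.53 and 0.37 for Slco2b1, -0.18 and 0.19 for Abcc1, -0.56 and 0.036 for Abcc6, -0.75 and 0.0040 for Abcg8, -0.0088 and 0.34 for Abcb1a, -0.35 and 0.049 for Abcb6, -0.23 and 0.15 for Slc22a5, -0.18 and 0.11 for Abcd3, -0.035 and 0.29 for Abca5, -0.028 and 0.45 for Abcd4, -0.25 and 0.24 for Abca6, and -0.11 and 0.053 for Abcf1. The cause was not tested.

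The titles number the libraries 1 and 2 in each genotype without saying that a number marks a shared preparation. Same-numbered libraries' deviations correlated at 0.151 across all genes tested and at 0.415 across the 48 transporter genes. With the replicate number as a block, 7 transporter genes had an unadjusted p under 0.05 (6 without it), 4 higher and 3 lower. Abcb4, lower in KO within both numbers, and Abcc4 were added and Abca1 was lost. By limma 0 passed the adjusted threshold, and 1054 of all genes had an unadjusted p under 0.05.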
